A study of Homo sapiens with 7 samples.

Results

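The 40 genes described here encode proteins that carry out or time mitosis, and they were followed through heat stress in HSC-3 cells, a widely used tongue carcinoma line of human squamous epithelial origin. The members are a fixed list of named genes, 40 of the 19775 genes with a probe set of their own on the array, and the list rests on gene names, with no threshold on a measured value. Each gene is represented by 1 probe set, the brightest by mean log2 intensity among those assigned to it alone. Cells were kept at 37 °C without heat (the control) or heated for 90 min at 42 °C or at 44 °C. Heated cells were harvested at once (0 h) or 6 or 12 h after return to 37 °C. RNA of each of the 7 conditions went onto 1 Affymetrix expression array, so there are no replicates, no test across samples is possible, and each difference given is between 1 array and another. The labels do not say whether an array holds 1 culture or several pooled, and the number of arrays limits the precision.

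A cell enters mitosis when cyclin B with the kinase CDK1 is switched on by CDC25 phosphatases and by the kinases PLK1 and Aurora A. Spindle microtubules then attach to kinetochores, the spindle checkpoint holds back anaphase until every chromosome is attached, and CDC20 with the anaphase-promoting complex ends the wait by marking securin (PTTG1) and cyclin B for destruction. Most of these genes are transcribed late in the cell cycle, in G2 and M, from promoters that carry CCAAT boxes bound by NF-Y and a short element called the CHR. The CHR is bound by the MuvB complex, which represses the genes in resting cells as DREAM and activates them with B-MYB and FOXM1. In a whole culture, a smaller share of cells in G2 and M and less of these RNAs per cell cannot be told apart.

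The shared promoter elements can be read in the sequences. Whether they bear on the differences between arrays was not tested. RefSeq promoter windows (GRCh38.p14, 250 bases before to 50 after an annotated start) were matched by symbol for 35 of the 40 members, 45 windows in all. AURKA, BUB3, TTK, BIRC5 and TPX2 had no entry. The letters TTTGAA or TTCGAA, searched on both strands as the CHR, stood in 68.9% of the member windows against 16.4% of all 35116 windows. CCAAT, on both strands, stood in 73.3% against 34.6%, and both together in 55.6% against 6.38%. A CHR match and a CCAAT match overlapped at 1 place in the member windows. No member window held the heat shock element searched by its inverted GAA repeats on both strands, which 0.490% of all windows held. Counted from the start, matches to TTTGAA lay at a median position of -29 and CCAAT matches at -86. The 250 bases before the start follow for cyclin B1 at chr5:69166900-69167149, CDC20 at chr1:43358731-43358980, PLK1 at chr16:23678639-23678888 and the kinesin KIF2C at chr1:44739587-44739836, all on the plus strand. Capitals mark CHR and CCAAT matches on either strand, so TTCAAA is a CHR read on the other strand.
CCNB1: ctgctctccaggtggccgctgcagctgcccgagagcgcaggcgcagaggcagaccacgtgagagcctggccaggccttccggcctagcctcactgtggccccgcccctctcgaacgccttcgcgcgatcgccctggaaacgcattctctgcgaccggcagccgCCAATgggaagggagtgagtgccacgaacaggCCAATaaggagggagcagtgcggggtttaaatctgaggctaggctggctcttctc
CDC20: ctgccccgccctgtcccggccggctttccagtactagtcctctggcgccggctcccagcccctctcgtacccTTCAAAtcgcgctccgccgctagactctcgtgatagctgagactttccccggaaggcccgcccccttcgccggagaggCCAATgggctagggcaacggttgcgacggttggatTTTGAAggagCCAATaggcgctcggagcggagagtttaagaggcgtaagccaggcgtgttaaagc
PLK1: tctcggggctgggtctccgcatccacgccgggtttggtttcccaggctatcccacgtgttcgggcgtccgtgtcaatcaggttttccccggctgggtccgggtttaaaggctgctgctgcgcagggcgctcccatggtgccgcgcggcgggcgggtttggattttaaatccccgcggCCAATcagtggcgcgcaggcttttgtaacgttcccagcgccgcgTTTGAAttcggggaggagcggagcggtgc
KIF2C: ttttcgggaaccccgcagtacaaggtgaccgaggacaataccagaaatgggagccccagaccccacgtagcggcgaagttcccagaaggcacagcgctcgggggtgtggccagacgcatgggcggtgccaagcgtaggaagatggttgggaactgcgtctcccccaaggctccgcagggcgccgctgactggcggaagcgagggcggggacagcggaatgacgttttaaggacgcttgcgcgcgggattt
CDC20 has 2 CHR and 2 CCAAT matches in this stretch, PLK1 has 1 of each and CCNB1 has 2 CCAAT matches and none of the CHR letters. KIF2C, the first member in list order with neither, was printed for contrast, and 2 members in all had neither. A match is a string of letters and not a measured site. The 28 members with a CHR match had a median log2 difference from the control of 0.41 at 42 °C, 6 h and -0.57 at 44 °C, 12 h, against 0.37 and -0.53 in the 7 members without one, and both groups spanned wide ranges (-1.40 to 0.04 and -1.39 to 0.10 at 44 °C, 12 h).

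The deposited intensities were not brought to a common level, so each difference is given as deposited and, where stated, after quantile normalization, which gives all arrays the same distribution. Taking only probe sets that no array reads under the floor of 21.4 (the pooled median intensity), the median log2 shift from the control ran from -0.35 at 44 °C, 12 h to 0.40 at 44 °C, 0 h. All 40 members were far above the floor on every array (lowest value 189), and all belong to the 8466 genes tested, those whose mean reached 4 times the floor. The words rose and fell are kept for members that passed 1.5-fold as deposited and again after quantile normalization, and 2-fold is named where it was passed the same way. The threshold set at the outset was 2-fold, with 1.5-fold as an alternative that was described beside it once few members were seen to pass 2-fold. For every comparison, the share of all tested genes that passed the same rule under both scalings is given. For counts under 1 scaling alone or with the mean of probe sets, that share was not worked out. The squamous markers with a probe set of their own (KRT5, KRT14, ITGB4, CDH1, SFN and DSG3) summed to 34814 to 48391 on each array. Fibroblast markers summed to 203 to 419.5 over 6 genes with LUM below the floor, leukocyte markers to 34.3 to 72.5 over 4 with PTPRC and LYZ below it, and endothelial markers to 39.0 to 83.5 over 4 with VWF, CDH5 and KDR below it. The ratio of 3′ to 5′ signal ran from 1.19 to 1.29 for the beta-actin control probe sets and from 0.875 to 0.993 for GAPDH.

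Mitosis genes stood low straight after 42 °C, above the control 6 and 12 h later, and lowest of all 12 h after 44 °C. The median log2 difference of the 40 members from the control was -0.33, 0.40 and 0.35 at 0, 6 and 12 h after 42 °C, and 0.34, -0.10 and -0.56 at 0, 6 and 12 h after 44 °C. Over all 8466 genes tested, the same medians were -0.11, 0.26 and 0.22 after 42 °C and 0.46, 0.01 and -0.30 after 44 °C. The members minus all genes therefore came to -0.22, 0.14 and 0.13 after 42 °C and to -0.13, -0.12 and -0.26 after 44 °C. Each of these 6 differences from the median of all genes kept its sign after quantile normalization (-0.26, 0.15, 0.13, -0.15, -0.22 and -0.34). At 44 °C, 0 h the value was close to 0 with the mean of probe sets (-0.03) and with all genes that reach the floor as the comparison set (-0.05). With that comparison set the values at 42 °C were 0.28 at 6 h and 0.26 at 12 h, and that at 44 °C, 12 h was -0.39. At 44 °C, 0 h the plain median of the members changed sign, from 0.34 as deposited to -0.06 after quantile normalization. Of the 40 members, 33 lay below the median of all genes at 42 °C, 0 h, and 30 and 27 lay above it at 6 and 12 h. At 44 °C, 24, 27 and 33 lay below it at 0, 6 and 12 h. These 6 comparisons share the control array.

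**Figure D1:**
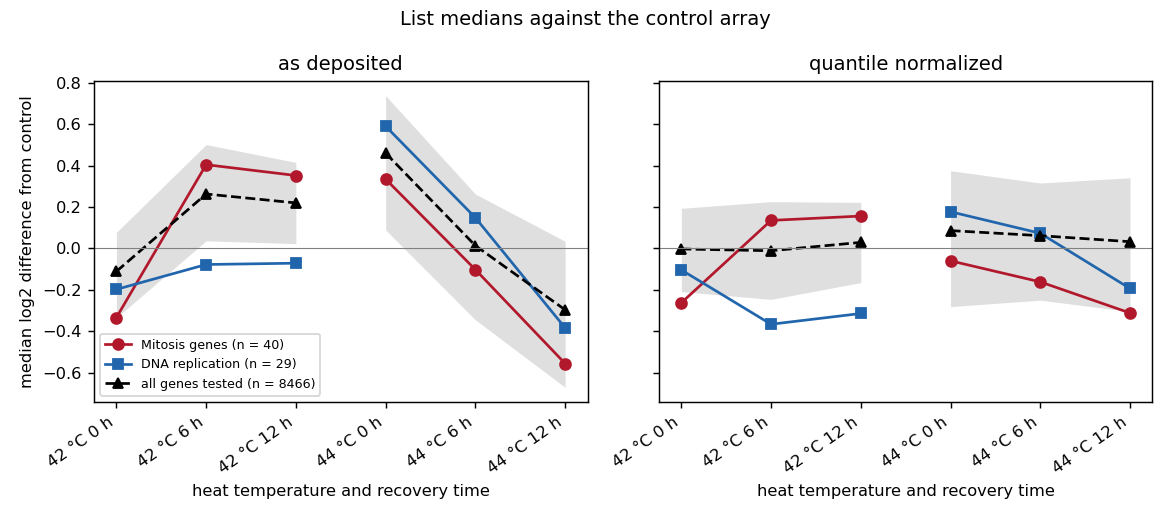
Median log2 difference from the control (vertical axis) on the 6 heated arrays (horizontal axis), as deposited on the left and quantile normalized on the right, for 40 mitosis genes, 29 DNA replication genes and the 8466 genes tested, with the grey band holding the middle 50% of those genes. Mitosis genes lie above the dashed median of all genes at 6 and 12 h after 42 °C and below it on the other 4 heated arrays.

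The arrays where each member was highest and lowest were counted as well. The same count over all genes was not made. As deposited, the counts also hold the shift of whole arrays from the control, which was up at 42 °C, 6 h (0.24) and 12 h (0.16) and 44 °C, 0 h (0.40). It was down at 44 °C, 12 h (-0.35) and 42 °C, 0 h (-0.13). As deposited, 18 members were highest at 42 °C, 6 h, 10 at 42 °C, 12 h and 12 at 44 °C, 0 h, and 26 were lowest at 44 °C, 12 h, 11 at 42 °C, 0 h and 3 in the control. After quantile normalization 17 were highest at 42 °C, 6 h and 14 at 42 °C, 12 h, and 16 were lowest at 44 °C, 12 h and 12 at 42 °C, 0 h. The 44 °C, 0 h array changed most with the scaling, with 5 members highest and 4 lowest there after quantile normalization. The ratio of the highest to the lowest array ran from 1.49 for PTTG1 (securin) to 4.26 for KIF14, a kinesin of the cytokinetic midzone.

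**Figure D2:**
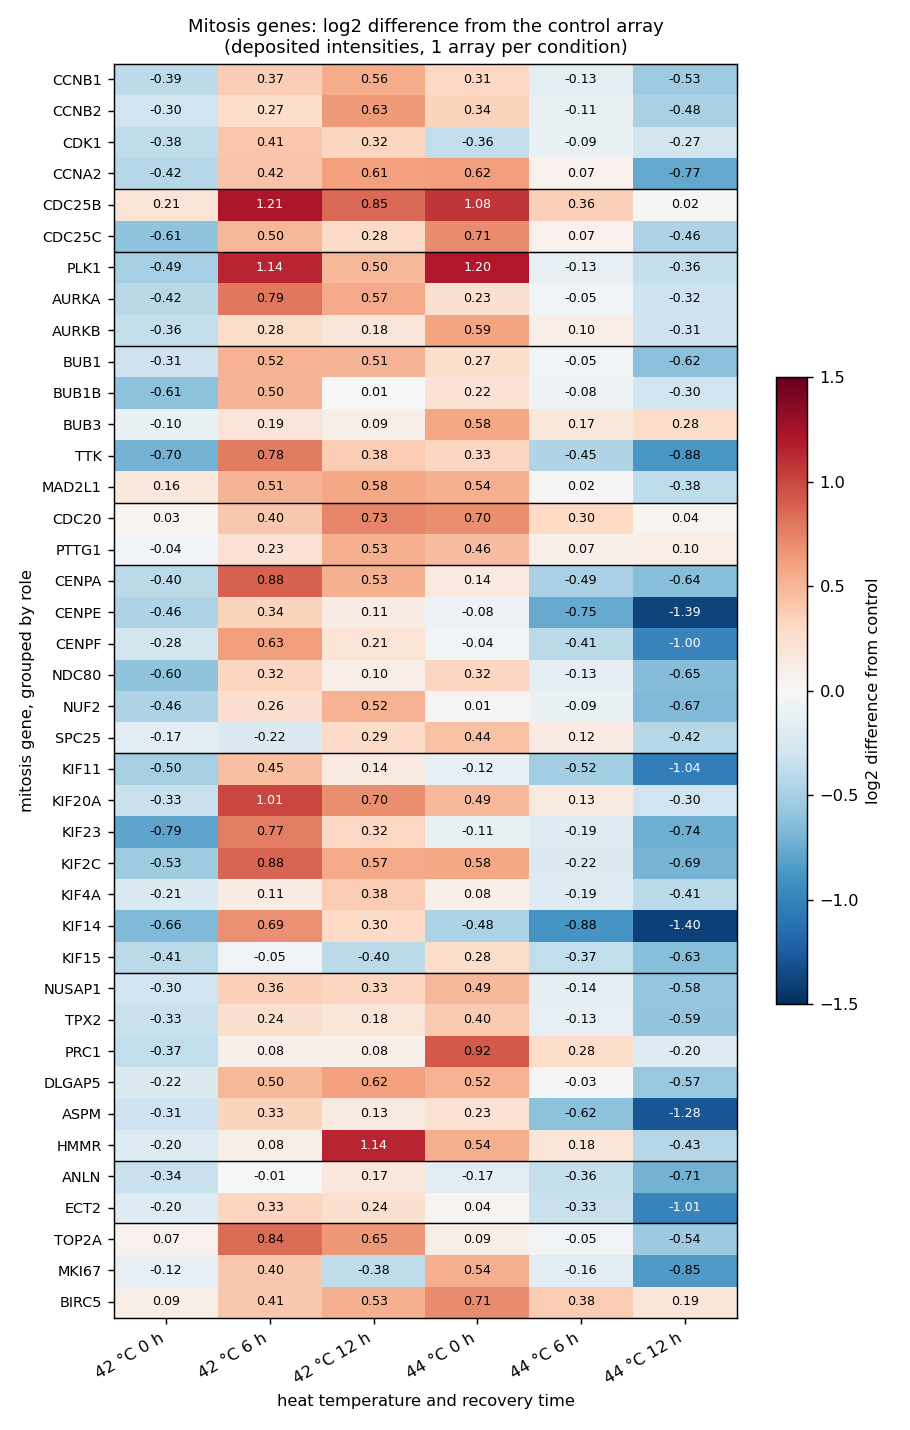
Each cell is the log2 difference of a mitosis gene (rows, grouped by role between the black lines) from the control array on 1 heated array (columns), from deposited intensities. The 42 °C, 0 h and 44 °C, 12 h columns are mostly blue, the 42 °C, 6 h and 12 h columns mostly red, and the deepest blue cells are KIF14 (-1.40) and CENPE (-1.39) at 44 °C, 12 h.

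Intensities of single genes are listed below in the order control, then 0, 6 and 12 h after 42 °C, then 0, 6 and 12 h after 44 °C, and are compared only within a gene. Among the cyclins, CCNB1 (cyclin B1, the mitotic partner of CDK1) was at 5401, then 4126, 6984 and 7938, then 6698, 4923 and 3744. CCNB2, its close relative, was at 2026, then 1644, 2435 and 3144, then 2569, 1877 and 1451. Both were thus highest 12 h after 42 °C and lowest 12 h after 44 °C, a gap of 2.12-fold and 2.17-fold between those arrays. CCNA2, the cyclin of S phase and early mitosis, was at 1527, then 1140.0, 2046 and 2330.1, then 2354, 1600.1 and 894. At 12 h the 44 °C array read 2.61-fold below the 42 °C array for CCNA2. The other bright probe set of CCNA2 gave a log2 difference of -0.63 between those arrays and -0.17 after quantile normalization, short of the 1.5-fold rule, and that of CCNB1 gave -1.20. CDK1, the kinase they activate, was at 6173, then 4756, 8221 and 7713, then 4795, 5782 and 5118. Straight after 44 °C CDK1 lay at -0.36 against the control on the log2 scale as deposited, while the 3 cyclins lay above 0. Its 2 other bright probe sets lay at 0.53 and 0.46 there, on the side of the cyclins. The direction of CDK1 on that array thus rests on the probe set. The median shift of that whole array from the control was 0.40. After quantile normalization CCNB1, CCNB2 and CCNA2 lay at -0.17, -0.12 and 0.20 there. CDK1 then lay at -0.86 and its 2 other bright probe sets at 0.06 and -0.005. At 42 °C, 6 h these 2 lay at 1.03 and 0.85, and at 0.79 and 0.64 after quantile normalization, past the 1.5-fold rule. The chosen probe set of CDK1 lay at 0.41 and 0.23 there, short of it. Between the temperatures at 6 h the 2 others passed the rule (-0.92 and -0.82 as deposited), and the chosen one (-0.51) did not.

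CDC25B and PLK1, both activators of mitotic entry, were the members furthest above the control at 42 °C, 6 h and at 44 °C, 0 h. CDC25B was at 729, then 843, 1689 and 1316, then 1538, 933 and 737, so that no heated array was below the control. It rose 2.32-fold at 42 °C, 6 h, 1.81-fold at 42 °C, 12 h and 2.11-fold at 44 °C, 0 h, past the 1.5-fold rule each time. CDC25C, the second phosphatase, was at 288, then 189, 406 and 351, then 470.2, 302 and 209. PLK1, the polo-like kinase that also acts at kinetochores and in cytokinesis, was at 353, then 251, 780.0 and 498, then 814, 323 and 275. Its peaks at 42 °C, 6 h and 44 °C, 0 h were 2.21-fold and 2.30-fold above the control. AURKA, the spindle pole kinase, was at 2506, then 1872, 4321 and 3715, then 2948, 2426 and 2014, and AURKB, of the chromosomal passenger complex, at 1552, then 1207, 1881 and 1753, then 2343, 1664 and 1256. The 2 Aurora kinases peaked on different arrays, AURKA at 42 °C, 6 h and AURKB at 44 °C, 0 h. Neither passed the 1.5-fold rule against the control.

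In the spindle checkpoint, TTK, the kinase that starts the signal, had the widest range. TTK was at 1127, then 692, 1939 and 1466, then 1414, 826 and 614, and fell 1.63-fold at 42 °C, 0 h. BUB1, a checkpoint kinase, was at 923, then 745, 1319 and 1314, then 1109, 891 and 599, and BUB1B, the BubR1 protein of the inhibitory complex, at 1231, then 806, 1746 and 1238, then 1431, 1165 and 998. MAD2L1, the MAD2 protein that binds CDC20, was at 2378, then 2653, 3389.7 and 3557, then 3447, 2405 and 1822. Straight after 42 °C its log2 difference from the control was 0.16, where those of TTK, BUB1 and BUB1B were -0.70, -0.31 and -0.61. Its 2 other bright probe sets read -0.19 and -0.71 there, so the sign for MAD2L1 rests on the probe set. BUB3, the WD-repeat partner of both BUB proteins, ranged from 5982 to 9620.2 and was 0.28 above the control at 44 °C, 12 h. Its other bright probe sets differed there, at -0.57, -0.39 and 0.03, so the direction of BUB3 on that array rests on the probe set.

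The anaphase pair kept up its level after 44 °C. CDC20, the activator of the anaphase-promoting complex, was at 2806, then 2873, 3706 and 4644, then 4546, 3463 and 2887, and PTTG1 at 6510.3, then 6314, 7612 and 9396, then 8947, 6852 and 6956. At 44 °C, 12 h they lay 0.04 and 0.10 above the control on the log2 scale, where the median member lay at -0.56. With BUB3, BIRC5 (0.19) and CDC25B (0.02), they were the 5 members whose chosen probe set was not below the control on that array.

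Centromere and kinetochore genes covered wider ranges. CENPA, the centromeric histone H3, was at 565, then 428, 1039 and 814, then 623, 402 and 362, and rose 1.84-fold at 42 °C, 6 h. CENPE, a kinetochore motor, was at 599, then 435, 757 and 648, then 566, 356 and 228. CENPE fell 1.69-fold at 44 °C, 6 h and 2.63-fold at 12 h, the latter by 1.39 on the log2 scale as deposited and by 0.99 after quantile normalization. CENPF, a large kinetochore and spindle protein, was at 1338, then 1105, 2064 and 1542, then 1299, 1009.5 and 668, and fell 2.00-fold at 44 °C, 12 h. Of the NDC80 complex, which holds microtubules at the kinetochore, NDC80 itself was at 1369, then 901, 1712 and 1471, then 1709, 1249 and 873. Its partner NUF2 ranged from 719.7 to 1634 and SPC25 from 1426 to 2590.4, and none of these 3 passed 1.5-fold against the control on any array.

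Among the 7 kinesins, motor proteins of the spindle, KIF14 had the lowest reading relative to the control. KIF14 was at 1792, then 1136, 2894 and 2201, then 1288, 971 and 679. It fell 1.58-fold straight after 42 °C, stood 0.69 above the control on the log2 scale at 6 h, and after 44 °C fell 1.85-fold at 6 h and 2.64-fold at 12 h, past 2-fold under both scalings. KIF14 has a second probe set, which lay at -1.17 at 44 °C, 12 h as deposited and at -0.79 after quantile normalization, short of 2-fold. KIF11, the motor that pushes spindle poles apart, was at 1273, then 903, 1741 and 1400.0, then 1169, 888 and 621, and fell 2.05-fold at 44 °C, 12 h. KIF20A, which carries the chromosomal passenger complex to the midzone, was at 1003, then 798, 2016 and 1626, then 1409.7, 1098 and 816, and rose 2.01-fold at 42 °C, 6 h. KIF23, of the centralspindlin complex, was at 899.9, then 522, 1530.2 and 1119.8, then 833, 788 and 539.8, and fell 1.73-fold at 42 °C, 0 h. KIF2C, a microtubule depolymerase at centromeres, was at 1486, then 1030.2, 2731 and 2199, then 2227, 1279 and 918, and rose 1.84-fold at 42 °C, 6 h. The other bright probe set of KIF2C lay at 0.75 there and at 0.49 after quantile normalization, short of the 1.5-fold rule. KIF4A, a chromosome-bound motor (719 to 1244), and KIF15, a spindle motor that backs up KIF11 (218 to 409), moved least of this group.

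HMMR was the spindle protein with a course of its own. HMMR, which helps to focus spindle poles, was at 1693, then 1473, 1793 and 3732, then 2464, 1916 and 1259. It rose 2.20-fold at 42 °C, 12 h after reading close to the control at 6 h. Its other probe set lay 0.64 above the control at 12 h and 0.44 after quantile normalization, short of the 1.5-fold rule. TPX2, the activator of Aurora A, was at 3044, then 2423, 3589 and 3443, then 4012, 2788 and 2016. PRC1, which bundles midzone microtubules, was at 2017, then 1556, 2128 and 2131, then 3821, 2444 and 1759, and its value straight after 44 °C stood clear of its other 6 arrays. ASPM, a spindle pole protein, was at 1776, then 1429.7, 2239 and 1947, then 2085, 1158 and 732. ASPM fell 1.53-fold at 44 °C, 6 h and 2.43-fold at 12 h, past 2-fold under both scalings at 12 h. Its 2 dimmer probe sets lay at -0.47 or lower at 12 h as deposited, but at -0.02 and -0.57 after quantile normalization. At 6 h these 2 lay at -0.67 and -0.55 as deposited and at -0.47 and -0.35 after quantile normalization, short of the 1.5-fold rule. NUSAP1 and DLGAP5, microtubule-binding spindle proteins, ranged from 1347 to 2824 and from 1310.0 to 2981.

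For cytokinesis, ANLN (anillin, a scaffold of the contractile ring) was at 4780.1, then 3781, 4757 and 5380.3, then 4238, 3731 and 2925. ECT2, the exchange factor that activates RhoA at the ring, was at 1935, then 1687, 2428 and 2292, then 1989, 1539.5 and 963. Both fell at 44 °C, 12 h, ANLN 1.63-fold and ECT2 2.01-fold. Their other bright probe sets lay at -0.53 and -0.67 as deposited and at -0.43 and -0.31 after quantile normalization, short of the 1.5-fold rule. TOP2A, the topoisomerase that untangles sister chromatids, was at 2816, then 2946, 5036 and 4415, then 3001, 2716 and 1932, and rose 1.79-fold at 42 °C, 6 h. MKI67, the Ki-67 proliferation marker, was at 1174, then 1080.0, 1553 and 902, then 1709, 1054 and 653. BIRC5 (survivin, of the chromosomal passenger complex) was at 1808, then 1925, 2396 and 2607, then 2951, 2361 and 2056. On these probe sets no heated array read below the control for BIRC5, while MKI67 was below it on 4 of the 6. Of the 3 other bright probe sets of BIRC5, 1 read -0.63 and -0.13 at 44 °C, 6 and 12 h, and another -0.05 at 42 °C, 0 h. The other bright probe set of TOP2A lay at 0.43 at 42 °C, 6 h, short of 1.5-fold.

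**Figure D3:**
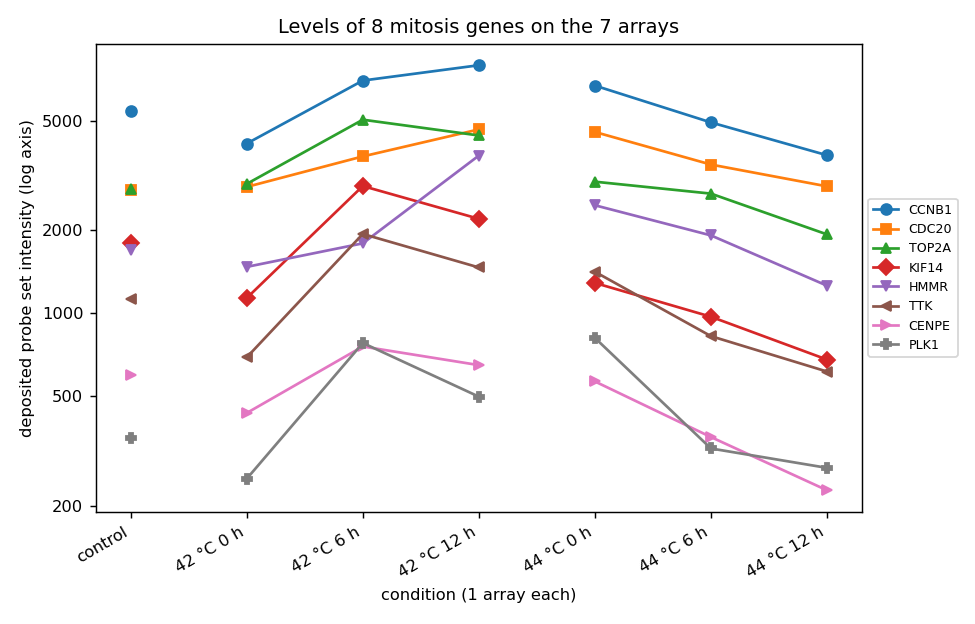
Deposited probe set intensity (vertical log axis) of 8 mitosis genes on the 7 arrays (horizontal axis), with points of 1 temperature joined. After 42 °C 5 of the 8 are highest at 6 h, while CCNB1, CDC20 and HMMR are highest at 12 h, and after 44 °C each is highest at 0 h and lowest at 12 h. The median shift of the whole array from the control also went down after 44 °C (0.40, -0.07 and -0.35 at 0, 6 and 12 h). Heights are not comparable between genes.

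The counts of members past the thresholds were small against the control. At 42 °C, 0 h, 3 of 40 members fell by 1.5-fold (KIF23, TTK and KIF14), against 7.22% of all genes tested, and none rose (2.62% of all). At 42 °C, 6 h, 6 members rose (CDC25B, PLK1, KIF20A, CENPA, KIF2C and TOP2A), which is 15% against 6.28% of all genes, and none fell (2.39% of all). At 42 °C, 12 h, HMMR and CDC25B rose, 5% against 3.98%, and none fell (1.78% of all). At 44 °C, 0 h, PLK1 and CDC25B rose, 5% against 11.2% of all genes, and none fell (2.52% of all). At 44 °C, 6 h, 3 members fell (KIF14, CENPE and ASPM), 7.5% against 9.43%, and none rose (4.8% of all). At 44 °C, 12 h, 7 members fell (those 3 with KIF11, CENPF, ECT2 and ANLN), 17.5% against 12% of all genes, and none rose (2.4% of all). Of the shares that were not 0, those at 42 °C, 0 h and 12 h and at 44 °C, 6 h lay within 2 percentage points of the share of all genes. At 2-fold, KIF14 and ASPM fell at 44 °C, 12 h, which is 5% of the members against 3.4% of all genes, and none rose (0.709% of all). Neither call was made with the mean of all probe sets of a gene or with the median shift alone, which both gave 0 members. No member passed 2-fold in the other 5 comparisons. Of all genes, 1.09%, 0.898% and 0.555% rose by 2-fold at 0, 6 and 12 h after 42 °C and 2.43%, 0.39% and 0.272% fell, while at 0 and 6 h after 44 °C 1.5% and 0.768% rose and 0.331% and 2.21% fell. After quantile normalization alone, 2 members were 1.5-fold lower at 42 °C, 12 h and 3 at 44 °C, 0 h, where the rule under both scalings counted none.

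Between 0 and 6 h after 42 °C the mitosis genes moved upward as a group. The median member was 0.74 higher on the log2 scale at 6 h than at 0 h, against 0.34 for all genes tested, and 33 of 40 lay above that median. By 1.5-fold, 13 members rose (32.5% against 12.1% of all genes) and none fell (2.07% of all). Past 2-fold were PLK1 (3.11-fold), KIF23 (2.93-fold), TTK (2.80-fold), KIF2C (2.65-fold) and KIF14 (2.55-fold), which is 12.5% of the members against 4.39% of all genes, and none fell by 2-fold (0.732% of all). With the median shift alone 3 passed 2-fold. The kinesins had the largest role median, 1.34, followed by PLK1 with the Aurora kinases at 1.21 and the CDC25 pair at 1.05, while the anaphase pair was lowest at 0.32. From 6 to 12 h after 42 °C, HMMR rose 2.08-fold, past 2-fold under both scalings (2.5% against 0.638% of all genes, and 3.66% at 1.5-fold). MKI67 fell 1.72-fold over the same hours (2.5% against 4.75% of all genes, with 0.744% at 2-fold). After 44 °C the step from 0 to 6 h ran the other way, with a median of -0.43 for the members and -0.44 for all genes. PLK1 fell 2.52-fold in that step, past the 1.5-fold rule (2.5% against 3.06% of all genes), no member fell by 2-fold (0.461% of all), and none rose (0.26% of all at 1.5-fold, 0.0709% at 2-fold). From 6 to 12 h after 44 °C the median was -0.45 against -0.28 for all genes, with no member past 1.5-fold (0.886% of all rose and 2.88% fell, and 0.154% and 0.437% at 2-fold).

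Set against each other at the same time, the 2 temperatures were furthest apart in the median of the members at 12 h. Straight after heating, the median member was 0.66 higher at 44 °C than at 42 °C, as were all genes by 0.59. PLK1 was 3.24-fold higher at 44 °C, the only member past 2-fold (2.5% against 2.32% of all genes, with 0.532% of all lower), and 4 members passed 1.5-fold (10% against 11.7%), with PRC1, CDC25C and KIF2C beside PLK1. None was lower by 1.5-fold (2.17% of all). At 6 h the median member differed by -0.51, against -0.23 for all genes, and at 12 h by -0.93, against -0.53. Relative to all genes the members were thus at 0.07, -0.27 and -0.41 at 0, 6 and 12 h, and after quantile normalization at 0.08, -0.41 and -0.52.

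At 6 h, 13 of 40 members were at least 1.5-fold lower at 44 °C than at 42 °C (32.5% against 15.1% of all genes), and at 12 h 18 were (45% against 13.5%). With the mean of all probe sets of a gene, 14 members were at 6 h and 12 at 12 h. None was higher at either time, against 4.08% and 1.91% of all genes at 1.5-fold and 0.827% and 0.721% at 2-fold. The 18 at 12 h include all 3 cyclins (CCNA2 2.61-fold, CCNB2 2.17-fold, CCNB1 2.12-fold), 3 of 5 checkpoint genes (TTK 2.39-fold, BUB1 2.19-fold, MAD2L1 1.95-fold) and 3 of 6 centromere and kinetochore genes (CENPE 2.84-fold, CENPF 2.31-fold, NUF2 2.27-fold). KIF14 (3.24-fold), KIF2C (2.40-fold) and KIF11 (2.25-fold) were among them, with HMMR (2.96-fold), ASPM (2.66-fold), DLGAP5 (2.28-fold), ECT2 (2.38-fold), ANLN (1.84-fold) and TOP2A (2.28-fold). Further bright probe sets passed the same rule for CCNB1, MAD2L1, KIF14, HMMR and TOP2A. Those of CCNA2, BUB1, CENPF, KIF2C, ECT2, ANLN and ASPM did not. Past 2-fold under both scalings were KIF14 at 6 h (2.98-fold), which is 2.5% against 5.28% of all genes, and KIF14 and HMMR at 12 h, 5% against 4.09%. The excess over all genes therefore showed at 1.5-fold and not at 2-fold. BUB3 was the only member not lower at 44 °C at 12 h (0.19), and 3 of its other probe sets lay at -0.93, -0.86 and -0.13.

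**Figure D4:**
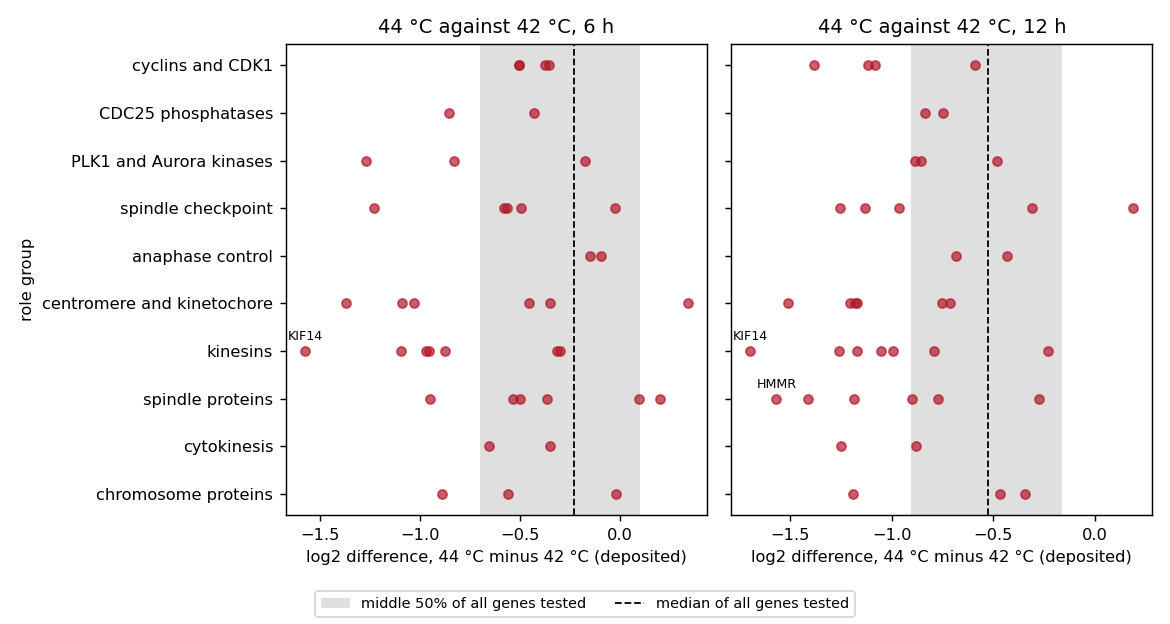
Each point is a mitosis gene, placed by its log2 difference between the 44 °C and the 42 °C array at 6 h (left) and 12 h (right), in rows by role; the grey band holds the middle 50% of all genes tested and the dashed line is their median. At 12 h 32 of 40 points lie left of the dashed line, and the genes past 2-fold under both scalings, KIF14 and HMMR, are labelled.

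The members that fell most at 44 °C are among the longer genes. Span here is the RefSeq length of the gene with its introns, from 4.22 kb for CDC20 to 131 kb for KIF4A, and it was looked at after the values were seen. Across the 40 members the rank correlation (Spearman) of span with the log2 difference at 44 °C, 12 h was -0.61 as deposited and -0.53 after quantile normalization. Across 8272 protein-coding genes tested it was -0.28. The points share 1 pair of arrays, genes are not independent replicates, and the value is a description. The 20 members below the median span of 30.5 kb had a median difference of -0.34, and the 20 others -0.66. The same correlation over the members was -0.28, -0.24 and -0.54 at 0, 6 and 12 h after 42 °C. It was -0.56 and -0.63 at 0 and 6 h after 44 °C, so it was not particular to 44 °C, 12 h. Between the temperatures it was -0.28, -0.21 and -0.25 at 0, 6 and 12 h. KIF4A and KIF15 (107 kb), the longest members, lay at -0.41 and -0.63 at 44 °C, 12 h, and KIF14 (69.3 kb), CENPE (92.5 kb) and ASPM (62.5 kb) below -1.2.

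**Figure D5:**
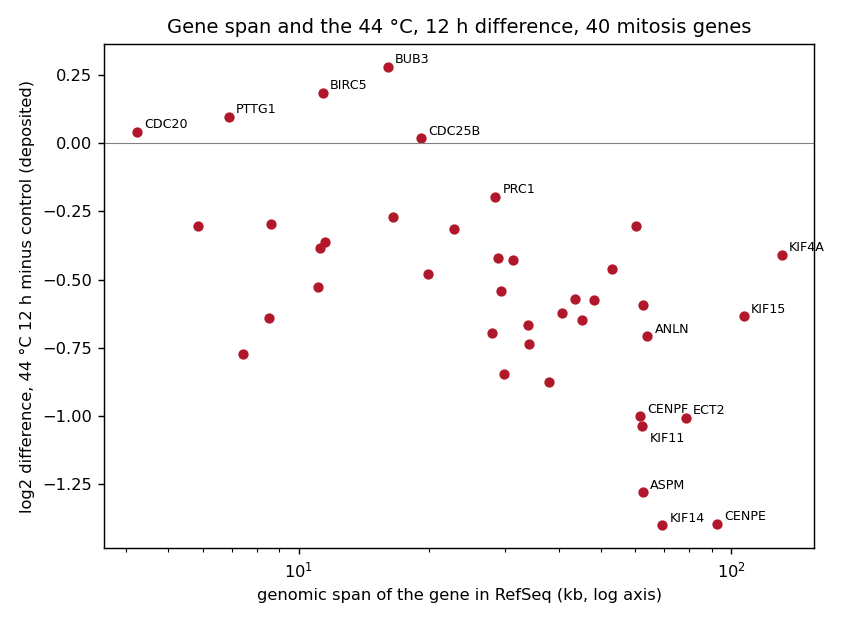
Genomic span (horizontal log axis, kb) against the log2 difference of the 44 °C, 12 h array from the control (vertical axis) for the 40 mitosis genes. CDC20, PTTG1, BIRC5, BUB3 and CDC25B, all under 20 kb, lie above 0, and KIF14, CENPE and ASPM, all over 60 kb, lie lowest.

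For 19 of the members, 28 further bright probe sets give a check within the array. At 44 °C, 12 h the median of these probe sets was -0.57, against -0.58 for the chosen probe sets of the same genes, and 25 of 28 had the same sign. At 42 °C, 6 h the medians were 0.44 and 0.41 with 26 of 28 of the same sign, and at 42 °C, 0 h -0.27 and -0.31 with 22 of 28. At 42 °C, 12 h and at 44 °C, 0 h, 23 of 28 had the same sign. The sign was shared least at 44 °C, 6 h, by 17 of 28, with medians of -0.17 and -0.09. Between the temperatures at 12 h the medians were -0.85 and -1.08 with 25 of 28. These values are as deposited, so the signs also hold the shift of the whole array. The standard deviation of a further probe set about the chosen one was 0.26 to 0.53 log2 units over the comparisons with the control and between temperatures. A single member with a difference below that size is not told apart from the disagreement between its probe sets.

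Other mitosis genes outside the members, 44 of them among the genes tested, gave medians on the same side of all genes on each of the 6 heated arrays. At 42 °C, 12 h and at 0 and 6 h after 44 °C these medians lay less than 0.1 from that of all genes. Their median log2 difference was -0.24, 0.43 and 0.28 after 42 °C and 0.40, -0.04 and -0.43 after 44 °C. At 42 °C, 0 h 8 of 44 fell by 1.5-fold (7.22% of all genes did), among them KIFC1, a kinesin that clusters spindle poles (3.05-fold), HJURP, the chaperone of CENPA (2.84-fold), and FBXO5, the inhibitor of the anaphase-promoting complex (2.72-fold). At 42 °C, 6 h 7 rose (6.28% of all genes) and none fell (2.39% of all). At 44 °C, 12 h 10 fell (12% of all genes) and none rose (2.4% of all), the former including FBXO5 (3.25-fold) and the kinesins KIF20B (3.06-fold) and KIF18A (2.65-fold). Between the temperatures at 12 h, 11 of 44 were lower at 44 °C by 1.5-fold (13.5% of all genes), with KIF20B at 5.22-fold. Genes of DNA replication, active earlier in the cycle, ran differently after 42 °C. Their 29 tested members had medians of -0.20, -0.08 and -0.07 there, which is -0.34 and -0.29 relative to all genes at 6 and 12 h, when the mitosis genes were above. Between the temperatures at 12 h their median was -0.22, against -0.93 for the mitosis genes and -0.53 for all genes.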

How the data were processed

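RNA of 7 conditions was hybridised to 1 Affymetrix HG-U133 Plus 2.0 array each, per the labels. The authors deposited 1 intensity for each of 54675 probe sets and array, on a linear scale, and how probe signals were summarised into it was not stated by the sources used here. Intensities below the floor of 21.4 were set to it and taken as log2. Quantile normalization used all probe sets, and a median shift used the 20902 that reach the floor on all 7 arrays. By the annotation of the array, 41097 probe sets list 1 gene, 1801 several and 11777 are not listed. Genes tested are the 8466 with a mean of at least 4 times the floor. Calls need 1.5-fold or 2-fold both as deposited and after quantile normalization. There are no replicates and no tests. The members and gene lists were chosen with earlier results of these data known. All members are described, with values on all 7 arrays for a fixed set of lead genes of each role and for members past 2-fold. From the other lists, up to 4 genes past 2-fold per comparison could be named. Members are counted at 2-fold by the original plan, and 1.5-fold was planned as an alternative and given the same space only after values were seen. The span of genes, the steps between times, the alternatives to the 1.5-fold counts and the comparison genes of like intensity were added after seeing the data. Python 3.11.15 with pandas 2.3.3 was used, and the code was tested on simulated arrays.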

Additional observations from a re-analysis of the deposited data

Results flagged for a closer look

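At 6 h the mitosis genes lay on opposite sides of all genes at the 2 temperatures, with a median 0.14 above that of all genes after 42 °C and -0.12 relative to it after 44 °C. At 12 h the values were 0.13 and -0.26. Each rests on 1 array a condition, both temperatures share the control array, and the difference was not tested.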

How the results depend on the processing

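There are 10 comparisons here, the 6 heated arrays against the control, the temperatures at 3 times, and 6 h against 0 h after 42 °C. The median of the members minus that of all genes kept its sign in each of them under the 6 alternatives (quantile normalization, median shift, mean of probe sets, no floor, and both other sets of comparison genes), and of these 60 values 51 moved by less than 0.1. The 10 values with the median shift were bound to stay the same, since it moves all genes of an array alike. The 10 values without the floor could hardly move, since the genes tested are bright. Neither set of 10 says anything about stability. At 44 °C, 0 h the value of -0.13 came to -0.03 with the mean of probe sets and -0.05 with all genes that reach the floor. With all genes that reach the floor on any array as the comparison set, it moved to 0.28 at 42 °C, 6 h, 0.26 at 42 °C, 12 h, -0.39 at 44 °C, 12 h, -0.44 and -0.67 between temperatures at 6 and 12 h, and 0.54 for 6 against 0 h. With quantile normalization it moved to -0.22 at 44 °C, 6 h and to -0.41 and -0.52 between temperatures at 6 and 12 h. With genes of like intensity (1174 genes between 1083 and 2374) it moved by less than 0.1 in each.

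Counts of members depended on scaling and threshold. For counts under 1 scaling alone or with the mean of probe sets, the share of all genes was not worked out. Counts on the deposited scale alone also hold the shift of the whole arrays, which ran from -0.35 to 0.40 against the control. They are thus not read as a result about the members. On the deposited scale alone, 2-fold gave 3 higher at 42 °C, 6 h, 1 at 42 °C, 12 h and 2 at 44 °C, 0 h, 6 lower at 44 °C, 12 h, 6 higher between temperatures at 0 h, 7 and 18 lower at 6 and 12 h, and 11 higher for 6 against 0 h. On that scale 1.5-fold gave 6 lower at 42 °C, 0 h, 11 and 8 higher at 42 °C, 6 and 12 h, 8 higher at 44 °C, 0 h, 18 lower at 44 °C, 12 h, 25 higher and 32 lower between temperatures at 0 and 12 h, and 25 higher for 6 against 0 h. After quantile normalization alone, 1.5-fold gave 2 lower at 42 °C, 12 h and 3 at 44 °C, 0 h. Between temperatures at 12 h, 1.5-fold gave 12 lower with the mean of probe sets, against 18 reported. With the mean of probe sets, 2-fold gave 1 lower at 42 °C, 0 h, 0 at 44 °C, 12 h and 2 between temperatures at 6 h. With the median shift alone it gave 0 lower at 44 °C, 12 h, 1 between temperatures at 12 h and 3 higher for 6 against 0 h. A threshold of 1.5-fold in place of 2-fold raised the counts to 3 lower at 42 °C, 0 h, 6 and 2 higher at 42 °C, 6 and 12 h, 2 higher at 44 °C, 0 h, 3 and 7 lower at 44 °C, 6 and 12 h, 4 higher and 13 and 18 lower between temperatures, and 13 higher for 6 against 0 h. In all, 146 alternative counts stayed within 1.5 times the reported one and 34 did not. Many of the 146 were 0 where the reported count was 0, so the tally says little about how stable the larger counts are. No paired analysis was possible because each condition has 1 array, and for the same reason no array could be left out. The cause of the shifts between scalings was not tested. All members lay well above the floor, with a lowest intensity of 189.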

Other observations

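Condensin and cohesin genes, which compact chromosomes and hold sister chromatids together, had a median of -0.56 relative to all genes straight after 44 °C, both as deposited and after quantile normalization (16 genes). At 44 °C, 12 h it was -0.32, with 4 of 16 lower by 1.5-fold (12% of all genes tested) and none higher (2.4%). Genes of the anaphase-promoting complex had medians from -0.11 to 0.10 relative to all genes on the 6 heated arrays (13 genes, subunits together with FZR1). FZR1, the late-mitotic activator of the complex, read 2.74-fold higher at 42 °C, 6 h and 2.22-fold at 12 h, from 62.3 in the control to 171 and 138. Of all genes, 0.898% and 0.555% rose by 2-fold there. The control value lies under the mean of 85.4 that a gene needs to be tested. FZR1 thus counts among the genes tested only through arrays where it read higher, and its rise is a description of 1 gene picked from the list.

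Factors that control transcription of G2 and M genes had medians from -0.05 to 0.17 relative to all genes on the heated arrays (13 genes tested of 16). RBL1 (p107), a pocket protein, fell 3.13-fold at 44 °C, 12 h, to 80.6 from 252, and was 3.83-fold lower than at 42 °C, 12 h.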
